A study of Mus musculus with 5 samples.

Results

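The Hox genes encode homeodomain transcription factors that lie side by side in clusters and give embryonic cells their position along the head-to-tail axis. Pcgf6 occupancy was measured at 38 listed Hox genes of the 4 mouse clusters, 10 in Hoxa, 10 in Hoxb, 9 in Hoxc and 9 in Hoxd, which were taken by name among 22359 protein-coding promoters. They were listed by name and not by a threshold on these data, and Hox genes outside the list were not analysed here. Binding was read from ChIP-seq, in which DNA cross-linked to a protein is pulled down with an antibody and sequenced. All 5 libraries came from CCE, an established line of mouse embryonic stem cells (ESCs), kept below passage 15 with LIF and cross-linked with disuccinimidyl glutarate and paraformaldehyde. The ChIP groups used 2 Pcgf6 antibodies, Santa Cruz (sc-160649) and Abcam (ab48010), with 2 libraries each, and 1 input library had no antibody. No library of cells without Pcgf6 and no transcript levels were used here, so the labelled cell type was not checked against markers.

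The Hox clusters are the classic targets of Polycomb proteins, which keep them silent until the embryo activates the anterior genes first and the posterior genes last. Pcgf6 is the subunit that defines a variant of Polycomb repressive complex 1 (PRC1.6). That complex carries DNA-binding partners, among them E2f6 and the Mga-Max pair, which recognises the E-box CACGTG. In ESCs the Hox promoters are a textbook case of bivalent chromatin, with activating and repressing histone marks together.

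The authors deposited depth of coverage from reads extended to 300 bp on mm9 (NCBIM37), and single fragments were recovered from its steps. The 2 libraries of an antibody turned out to hold largely the same fragments (87.8% of replicate 1 within replicate 2 for Santa Cruz, 88.0% for Abcam). They were therefore joined, each shared fragment counted once, which left 1 library per antibody with 2569861 Santa Cruz and 3169637 Abcam fragments, beside 22303846 in the input. Intervals given are exact 95% Clopper-Pearson intervals, except those of centre over edge, which are normal approximations on the log scale. All hold counting error only, with no replicate error behind them. Every test compares the fragments of libraries rather than of independent cultures. A ratio is ChIP over input fragments within 2 kb of a transcription start site (TSS), each divided by its library total, so that 1 means equal density.

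No Hox promoter was enriched beyond the threshold with either antibody. With Santa Cruz, 0 of 38 members passed an adjusted p of 0.05 (exact binomial test, one-sided, Benjamini-Hochberg adjustment over all promoters), where 0.644% of all promoters did. With Abcam, 0 of 38 passed, where 1.12% of all promoters did. At an unadjusted p under 0.05, Hoxa4 was the 1 member above the input with Santa Cruz (2.63% of members, against 5.06% of all promoters). With Abcam, Hoxa4 and Hoxc4 were above it, 5.26% of members against 6.34% of all promoters. These tests had little reach at single promoters. At the median Hox input of 102 fragments, a promoter needed 27 Santa Cruz fragments, a ratio of 2.30, or 31 Abcam fragments, a ratio of 2.14, to pass.

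Most Hox promoters lay below the input. The ratio was over 1 at 8 of 38 members with Santa Cruz, 21.1% against 39.7% of all promoters. With Abcam it was over 1 at 11 members, 28.9% against 43.6%. At 3 members, Hoxa4, Hoxc12 and Hoxd1, the ratio was over 1 with both antibodies, 7.89% against 23.2% of all promoters. At 22 members it was below 1 with both. The share of all promoters was not computed for that count, so it is not read as a trait of the Hox genes. Summed over the 38 windows, 365 Santa Cruz fragments stood against 3940 of the input, a ratio of 0.804 (0.720 to 0.895). The 509 Abcam fragments gave 0.909 (0.827 to 0.997). With overlapping windows counted once, the Abcam ratio was 0.913 and its interval held 1 (0.830 to 1.001). The median member had a ratio of 0.760 with Santa Cruz and 0.904 with Abcam, and the median of all promoters was 0.898 and 0.943.

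The input itself was deep at these genes. Hox promoters held 53 to 159 input fragments with a median of 102.5, while the median of all promoters was 69. The 14872 promoters whose input lay within the Hox range had a median Santa Cruz ratio of 0.844 and a median Abcam ratio of 0.896. Among the 4895 promoters with a CpG content (observed over expected) at or above the Hox median of 0.526, the medians were 0.918 and 0.985. The part of input depth and CpG content in the low Hox ratios was not tested. At an unadjusted p under 0.05 in the other direction, 7 members lay below the input with Santa Cruz (18.4%, against 6.28% of all promoters), namely Hoxa5, Hoxa10, Hoxa13, Hoxb5, Hoxb13, Hoxc5 and Hoxc11. With Abcam 2 did so, Hoxa13 and Hoxc8 (5.26%, against 5.84%). Among the 14872 promoters with input in the Hox range, the shares were higher, 8.92% with Santa Cruz and 8.18% with Abcam. None of the 22359 promoters passed the adjusted threshold in this direction with either antibody in the same exact binomial test.

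**Figure D1:**
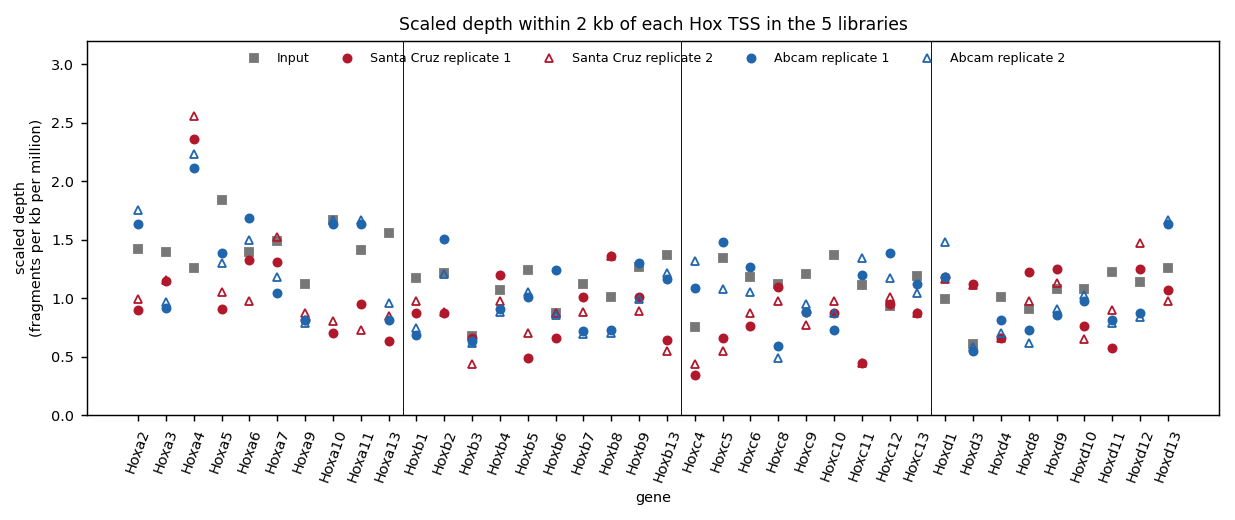
Scaled depth of coverage within 2 kb of the TSS of each of the 38 Hox genes (x axis, by cluster) in the 5 libraries (y axis, fragments per kb per 1000000 fragments of the file). Hoxa4 is the gene at which all 4 ChIP points stand far above the input square, at 2.11 to 2.56 against 1.26.

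Scaled depth as deposited gave the same picture library by library. Its unit is the depth sum of a window over that of the whole file, as fragments per kb per 1000000 fragments. At 17 of 38 members all 4 ChIP files lay below the input, 44.7% against 31% of all promoters. At 3 members, again Hoxa4, Hoxc12 and Hoxd1, all 4 lay above it, 7.89% against 17.6%. Since the 2 files of an antibody share most fragments, these 4 values stand for 2 libraries.

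Hoxa4, which helps to pattern the cervical vertebrae, had the highest ratio of the 38 members over both antibodies together. Its depth was 2.36 and 2.56 in the Santa Cruz files, 2.11 and 2.23 in the Abcam files and 1.26 in the input. All 4 ChIP values thus stood above the input value. The 27 Santa Cruz fragments against 110 of the input gave a ratio of 2.13 (1.34 to 3.27), with p = 0.000769, which adjustment after Benjamini and Hochberg raised to 0.102 (exact binomial test). The 26 Abcam fragments gave 1.66 (1.04 to 2.57), with p = 0.0168 and an adjusted p of 0.477 in the same exact test. Both antibodies together gave 1.87 (1.32 to 2.62), at the percentile of 89.7 among all promoters. In the 500 bp upstream of the TSS, 8 Santa Cruz and 7 Abcam fragments were found where the input predicts 2.07 and 2.56. In the 500 bp downstream, 5 and 8 were found where it predicts 2.30 and 2.84. From there to 2 kb on either side, 14 Santa Cruz fragments stood against 8.30 predicted and 11 Abcam fragments against 10.2, so part of the Santa Cruz excess lay away from the start. The 1 kb around the start holds Hoxa4 sequence together with an antisense transcript (2700086A05Rik) and an intron of long Hoxa3 transcripts, which coverage without strand cannot tell apart.

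Hoxa13, which acts in digit and urogenital development, stood at the other end of the same cluster with the lowest ratio of all members over both antibodies. Its depth was 0.633 and 0.848 in the Santa Cruz files, 0.809 and 0.959 in the Abcam files and 1.55 in the input. All 4 ChIP values were below the input. The 7 Santa Cruz fragments against 138 of the input gave 0.440 (0.174 to 0.932) and the 11 Abcam fragments gave 0.561 (0.274 to 1.04). Within 500 bp of its TSS, the 33 input fragments predict 3.802 fragments with Santa Cruz and 4.69 with Abcam, and 1 and 5 were found, so that the Abcam count there was close to the prediction. The 250 bases upstream of both starts are printed here because these genes hold the extremes of the measured ratios. They were read from NCBIM37 on the minus strand, for Hoxa4 (ENSMUSG00000000942.9) at chr6:52141753-52142002 and for Hoxa13 (ENSMUSG00000038203.11) at chr6:52210875-52211124. Both are rich in G and C, with 82% and 80% of bases and 41 and 35 CpG dinucleotides. Capitals mark the E-box CACGTG, which is present in the Hoxa4 stretch and not in that of Hoxa13.
Hoxa4: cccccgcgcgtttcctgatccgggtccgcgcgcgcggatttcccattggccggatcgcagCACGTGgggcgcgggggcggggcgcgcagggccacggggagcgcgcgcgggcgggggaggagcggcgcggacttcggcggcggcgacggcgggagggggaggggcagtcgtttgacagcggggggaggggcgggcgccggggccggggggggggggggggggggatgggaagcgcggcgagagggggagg
Hoxa13: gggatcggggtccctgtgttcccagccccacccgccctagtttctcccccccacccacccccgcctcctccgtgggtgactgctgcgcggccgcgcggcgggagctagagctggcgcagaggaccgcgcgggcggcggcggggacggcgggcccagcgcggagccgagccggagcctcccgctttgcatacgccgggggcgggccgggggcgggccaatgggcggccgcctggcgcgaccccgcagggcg

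**Figure D2:**
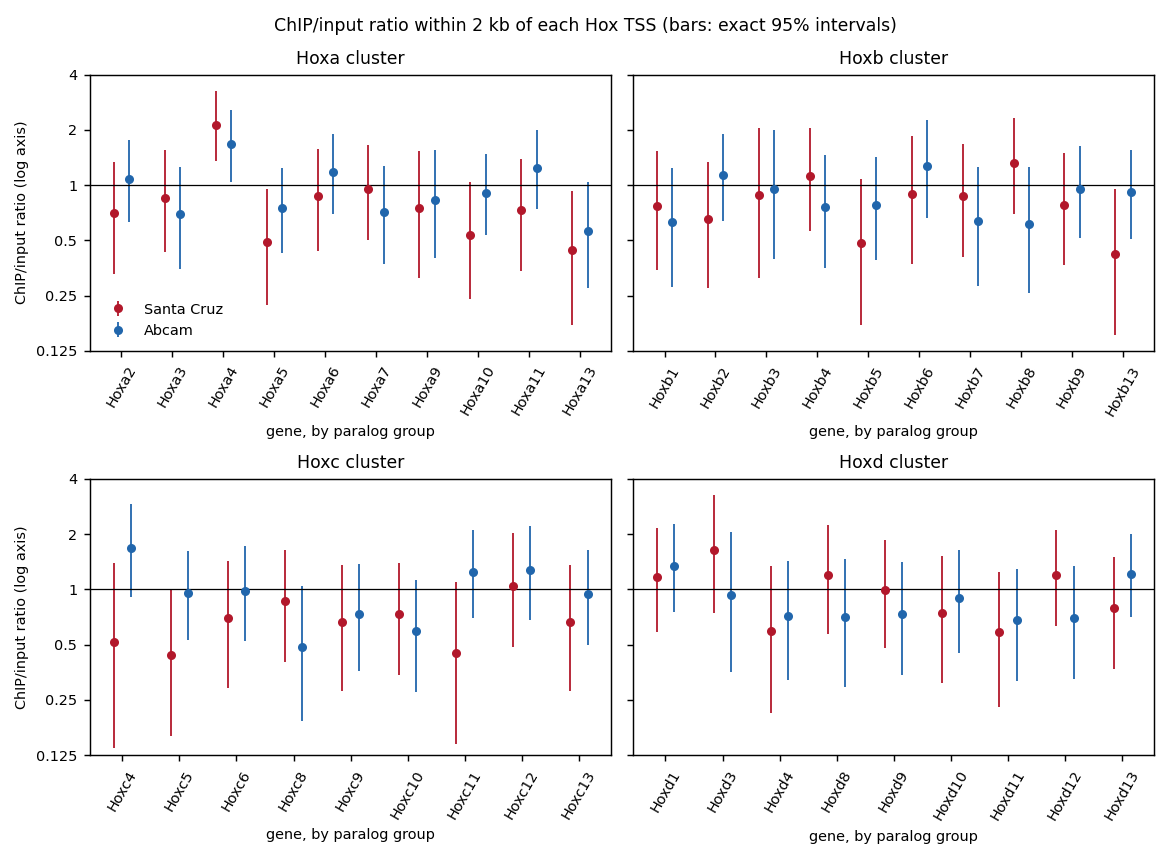
ChIP/input ratio (log axis) within 2 kb of the TSS of each Hox gene, by cluster and paralog group. Points are the ratios with Santa Cruz (red) and Abcam (blue) and bars their exact 95% intervals. The bars hold 1 at most genes with either antibody, and Hoxa4 is the 1 gene whose bars miss it with both.

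The anterior genes of paralog groups 1 to 3 act in hindbrain, neural crest and pharyngeal arches, and 7 of them were listed. Together they gave a ratio of 0.889 (0.681 to 1.14) with Santa Cruz, while Abcam gave 0.958 (0.759 to 1.20). Hoxd1 had the highest ratio of the Hoxd cluster over both antibodies, 1.27 (0.803 to 1.94). Its depth was 1.18 and 1.16 with Santa Cruz and 1.18 and 1.48 with Abcam, above the 0.992 of the input in each file. Its 12 Santa Cruz and 17 Abcam fragments against 89 of the input gave 1.17 (0.583 to 2.15) and 1.34 (0.750 to 2.28). Hoxa3, which is needed for thymus and parathyroid, had 12 fragments with each antibody against 122 and ratios of 0.854 and 0.692. Its annotated starts have 1 transcript each, and the most upstream, at chr6:52163066, was used as the main one. That start lies between those of Hoxa6 and Hoxa7. At the other starts, 29212 and 40418 bp downstream, the ratios were 1.27 and 0.847 with Santa Cruz and 0.870 and 1.26 with Abcam. Hoxb1, a hindbrain gene, had 9 fragments with each antibody against 101, below the input in all 4 files. The remaining anterior genes, Hoxa2, Hoxb2, Hoxb3 and Hoxd3, had Santa Cruz ratios of 0.655 to 1.64 and Abcam ratios of 0.929 to 1.13. Every interval of the 7 anterior genes held 1.

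The central genes of groups 4 to 8, 15 of which were listed, pattern the neck and thorax. Their summed ratio was 0.884 (0.745 to 1.04) with Santa Cruz, while Abcam gave 0.908 (0.780 to 1.05), Hoxa4 included. Group 4 gave 1.19 with Santa Cruz (0.863 to 1.60) and 1.20 with Abcam (0.898 to 1.58), and 53 of its 110 ChIP fragments were those of Hoxa4. Hoxc4 differed most between the antibodies. Its depth was 0.342 and 0.435 with Santa Cruz, 1.09 and 1.32 with Abcam and 0.750 in the input. The Santa Cruz values lay below the input and the Abcam values above it. It held 4 Santa Cruz fragments against 67, a ratio of 0.518 (0.137 to 1.39), and 16 Abcam fragments, a ratio of 1.68 (0.909 to 2.93). The Abcam p of 0.0488 became 0.778 after Benjamini-Hochberg adjustment of the exact binomial test. At its other annotated start 15459 bp downstream the ratios were 0.763 and 0.696.

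Group 5 was low with Santa Cruz at each of its members. Hoxa5, a regulator of lung development, had 9 Santa Cruz fragments against 159 of the input, the deepest input of the 38, and a ratio of 0.491 (0.221 to 0.956). Hoxb5 had 6 against 108, a ratio of 0.482 (0.173 to 1.08), and was the lowest of the Hoxb cluster over both antibodies, 0.648 (0.370 to 1.07). Hoxc5 had 6 against 118 and a ratio of 0.441 (0.159 to 0.990). With Abcam the same genes gave 0.752, 0.782 and 0.954. Summed over group 5, the ratio was 0.473 (0.290 to 0.734) with Santa Cruz, while Abcam gave 0.822 (0.590 to 1.12).

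Of the other 10 central genes, 8 had a ratio below 1 over both antibodies together, while 41.8% of all promoters were over 1. Hoxb6 was the highest of the Hoxb cluster over both antibodies, 1.10 (0.650 to 1.78), with 8 Santa Cruz and 14 Abcam fragments against 78. Hoxa6 had 12 and 20 against 120, with ratios of 0.868 and 1.17, and Hoxa7 had 14 and 13 against 128, with 0.949 and 0.715. Hoxc8, which patterns thoracic vertebrae, had 7 Abcam fragments against 101, a ratio of 0.488 (0.191 to 1.04), and 10 Santa Cruz fragments, a ratio of 0.859. Over group 8 (Hoxb8, Hoxc8 and Hoxd8) the ratio was 1.11 (0.759 to 1.59) with Santa Cruz, while Abcam gave 0.593 (0.370 to 0.908), so the antibodies stood in the reverse order of group 5. Hoxb8 had 14 Santa Cruz and 8 Abcam fragments against 92, and Hoxd8 had 11 and 8 against 80. Hoxb4, Hoxc6, Hoxd4 and Hoxb7 had Santa Cruz ratios of 0.592 to 1.12 and Abcam ratios of 0.633 to 0.985.

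The posterior genes of groups 9 to 13, 16 of which were listed, pattern the lumbar and sacral trunk, limbs and genitalia. Their summed ratio was 0.702 (0.587 to 0.833) with Santa Cruz, while Abcam gave 0.892 (0.772 to 1.03). The Santa Cruz value was the lowest of the 3 zones, although its interval overlaps those of the anterior and central genes and the difference was not tested. Hoxb13, a gene of prostate and tail development, had 6 Santa Cruz fragments against 123, at 0.423 (0.152 to 0.948) the lowest Santa Cruz ratio of all members, and 16 Abcam fragments, a ratio of 0.915. Hoxa10, required in the uterus, had 9 against 147, a Santa Cruz ratio of 0.531, and 19 Abcam fragments, a ratio of 0.910. Hoxc11 had 5 against 96, a ratio of 0.452, and 17 Abcam fragments, a ratio of 1.25 (0.697 to 2.10). These 3 genes were thus low with Santa Cruz and near or above the input with Abcam. By group, the Santa Cruz ratio was 0.651 (0.423 to 0.963) in group 10, 0.599 (0.370 to 0.922) in group 11 and 0.565 (0.380 to 0.813) in group 13. Low Santa Cruz sums were therefore not particular to group 5. With Abcam the same groups gave 0.801, 1.06 and 0.887.

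Within the Hoxc cluster, Hoxc12 was the highest member over both antibodies at 1.17 (0.717 to 1.85), with 10 Santa Cruz and 15 Abcam fragments against 83. Hoxc10, a lumbar gene, was the lowest at 0.653 (0.385 to 1.05), with 10 fragments from each antibody against 119. Hoxd11, which shapes the forearm, was the lowest of the Hoxd cluster at 0.635 (0.356 to 1.07), with 7 and 10 against 104. Hoxa9, a regulator of blood progenitors, had 8 and 11 against 93, with ratios of 0.747 and 0.832. The 7 posterior genes not yet described, Hoxa11, Hoxb9, Hoxc9, Hoxc13, Hoxd9, Hoxd10 and Hoxd12, together with the digit gene Hoxd13, had Santa Cruz ratios of 0.661 to 1.20 and Abcam ratios of 0.697 to 1.24. Each of their intervals held 1.

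**Figure D3:**
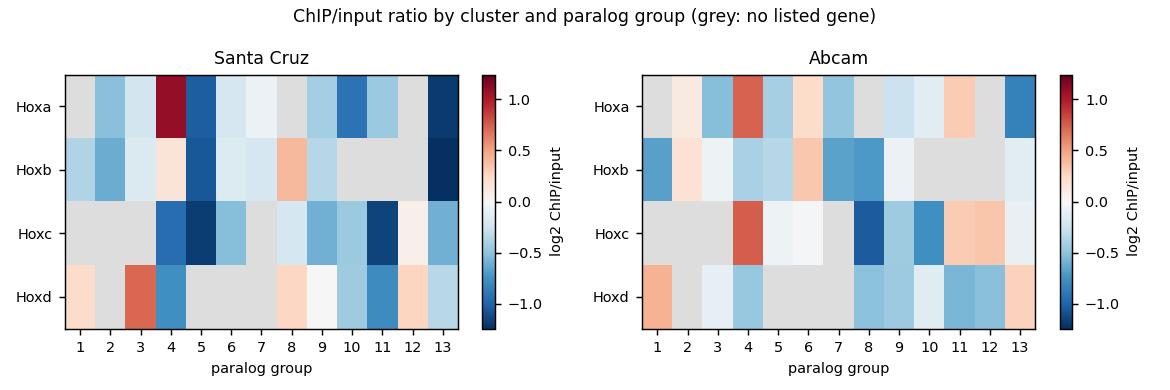
Log2 ChIP/input ratio by cluster (rows) and paralog group (columns) with each antibody, grey where no gene was listed. With Santa Cruz, blue covers every listed member of groups 2, 5, 6, 7, 9, 10, 11 and 13, and Hoxa4 is red with both antibodies.

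The antibodies were compared directly at the same promoters. Abcam gave the higher ratio at 25 members and Santa Cruz at 13, and the share of all promoters was not computed for this count. Over all promoters the summed ratio was likewise higher with Abcam, 0.992 against 0.942 with Santa Cruz. None of the 38 differed after adjustment (two-sided exact binomial test, Benjamini-Hochberg over all promoters), where 0.00894% of all promoters did. Hoxc4 was the 1 member with an unadjusted p under 0.05 (0.0396, adjusted to 1 in the same exact test, Abcam over Santa Cruz 3.24), or 2.63% against 2.47% of all promoters. At Hoxc11 Abcam over Santa Cruz was 2.76 with an interval of 0.976 to 9.56 (exact p = 0.0568), which rests on 17 and 5 fragments.

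A set of 6 members, Hoxa3, Hoxa4, Hoxa6, Hoxa7, Hoxa9 and Hoxd1, are in the list of bound genes that the study drew from these samples, so their direction is not independent evidence. They gave 85 Santa Cruz and 99 Abcam fragments against 662, ratios of 1.11 (0.878 to 1.40) and 1.05 (0.843 to 1.30). The other 32 members gave 0.741 (0.654 to 0.838) and 0.880 (0.792 to 0.976). Hoxa4 alone supplied 27 of the 85 Santa Cruz fragments and 26 of the 99 Abcam fragments. The paper's methods annotate peaks within 10 kb of a start, wider than the 2 kb of these ratios. The ratios therefore do not test the listing, and the share of all genes on that list is not given here.

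Whole clusters were tested next, because a cluster holds many more fragments than a promoter. From first to last listed gene, Hoxa spans 98.5 kb (chr6:52112350-52210874), Hoxb 173.9 kb (chr11:96055630-96229570), Hoxc 115.7 kb (chr15:102751534-102867274) and Hoxd 96.8 kb (chr2:74506367-74603200). Hoxa had the densest input, 28.3 fragments per kb, at the percentile of 99.97 among 25484 windows of 100 kb, whose median was 7.81. Hoxb, Hoxc and Hoxd had 20.1, 20.1 and 20.003 per kb. The flanks of 100 kb on either side held 8.35 to 20.8 per kb.

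With Santa Cruz, 278 fragments over Hoxa against 2789 of the input gave a ratio of 0.865 (0.762 to 0.979). The 364 fragments over Hoxb gave 0.903 (0.808 to 1.01), the 217 over Hoxc 0.809 (0.700 to 0.930) and the 208 over Hoxd 0.932 (0.804 to 1.08). The adjusted p was 0.0772, 0.167, 0.0187 and 0.525 in the same order (two-sided exact binomial test, Benjamini-Hochberg adjustment together with all windows). Hoxc was therefore lower than the input, 1 of 4 clusters, where 8.05% of windows and clusters were called lower and 13.5% higher. Scaled by its own flanks rather than the library totals, the Hoxc ratio was 0.898 and the call was lost (Fisher's exact test, p = 0.252). In the same way Hoxa, Hoxb and Hoxd had Santa Cruz ratios of 0.848, 1.03 and 0.897 (Fisher's exact test, p = 0.0408, 0.751 and 0.307). The p values of flank scaling, here and with Abcam, are unadjusted, and no share over other windows was computed for them.

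With Abcam the ratios were 0.981 (0.880 to 1.09) for Hoxa, 0.897 (0.811 to 0.990) for Hoxb, 0.922 (0.815 to 1.04) for Hoxc and 0.879 (0.766 to 1.01) for Hoxd. None of the 4 clusters passed, with adjusted p of 0.855, 0.0938, 0.329 and 0.148 in the same exact binomial test, where 9.14% of windows and clusters were called lower and 15.7% higher. At an unadjusted p, Hoxb (0.0310, exact binomial) was the 1 cluster under 0.05. All 8 cluster ratios lay below 1, as did 39% of windows with Santa Cruz and 38.7% with Abcam. The median window had 1.08 with each antibody and the lower quartile 0.916 and 0.920. Scaled by the flanks, the Abcam ratios were 0.951, 0.933, 1.02 and 0.752 for Hoxa, Hoxb, Hoxc and Hoxd (Fisher's exact test, p = 0.485, 0.339, 0.839 and 0.00213). The flanks of Hoxd had Abcam ratios of 1.15 and 1.20.

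**Figure D4:**
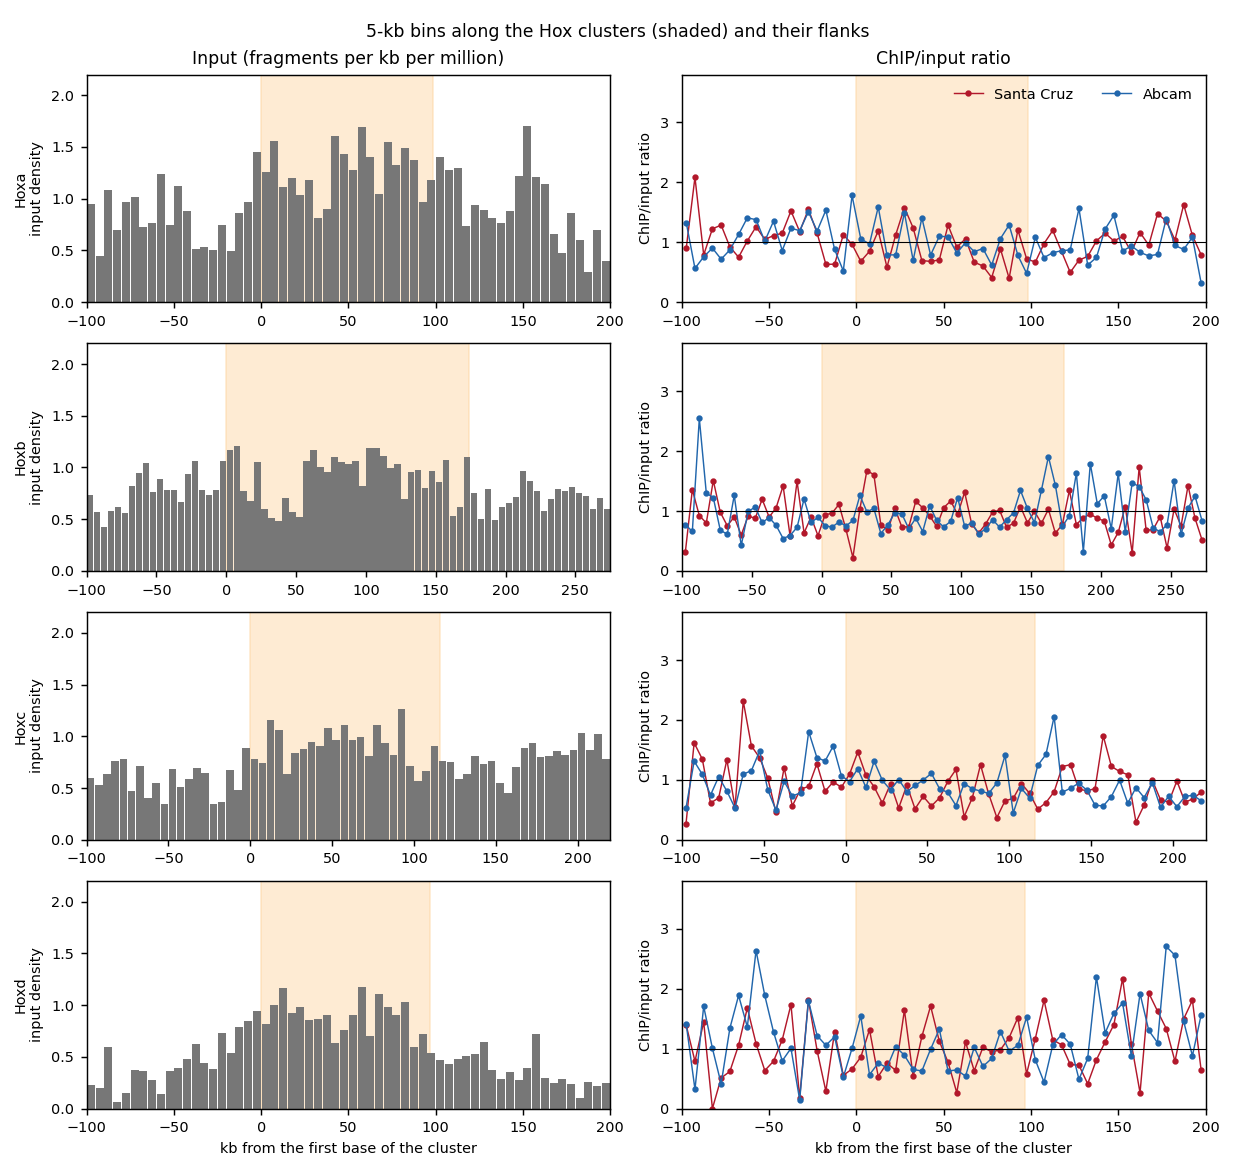
Bins of 5 kb along each Hox cluster (shaded) and 100 kb of flank on either side, x axis in kb from the first base of the cluster. The left panels show input density (fragments per kb per 1000000) and the right panels the ChIP/input ratio with each antibody. Input is on average denser in each shaded cluster than in its flanks (20.003 to 28.3 against 8.35 to 20.8 fragments per kb). Inside the clusters 34 of 99 bins with Santa Cruz and 30 with Abcam have a ratio over 1, counts not set against bins elsewhere.

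The ratio was also read in smaller bins along the clusters. No share over bins elsewhere in the genome was computed, and whether high bins lie side by side was not tested. Of 99 bins of 5 kb inside the clusters, 34 had a ratio over 1 with Santa Cruz and 30 with Abcam. The intervals of 0 bins lay above 1 and of 5 below it with Santa Cruz, and of 2 above and 1 below with Abcam. Within 2 kb of a listed start, summed over the 4 clusters, the ratio was 0.825 (0.737 to 0.921) with Santa Cruz, while Abcam gave 0.925 (0.839 to 1.02). Elsewhere in the clusters it was 0.905 (0.837 to 0.978) and 0.920 (0.857 to 0.986). In Hoxc the Santa Cruz ratio was 0.670 (0.512 to 0.863) near the starts and 0.887 (0.746 to 1.05) elsewhere.

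Around the Hox starts, ChIP fragments were more central than input fragments with Abcam. Within 500 bp of the TSS, the members summed to 163 Abcam fragments against 1066 of the input, a ratio of 1.08 (0.907 to 1.27). At 1.5 to 2 kb they summed to 96 against 890, a ratio of 0.759 (0.608 to 0.938). Centre over edge relative to the input was 1.42 (1.08 to 1.85) with Abcam and 1.04 over all promoters. Before division by the input, centre over edge was 1.70 with Abcam at the members and 1.78 over all promoters. The Santa Cruz values were 1.49 and 1.63, and those of the input 1.20 and 1.71. The ChIP fragments were thus no more central at the members than over all promoters, while the input was flatter there. With Santa Cruz the centre held 116 fragments and a ratio of 0.944, the edge 78 and 0.761, and the relative value was 1.24 (0.919 to 1.68), against 0.9497 over all promoters. Without Hoxa4 the relative values were 1.34 (1.02 to 1.76) and 1.20 (0.879 to 1.64). The intervals of the relative values are approximate and not exact.

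**Figure D5:**
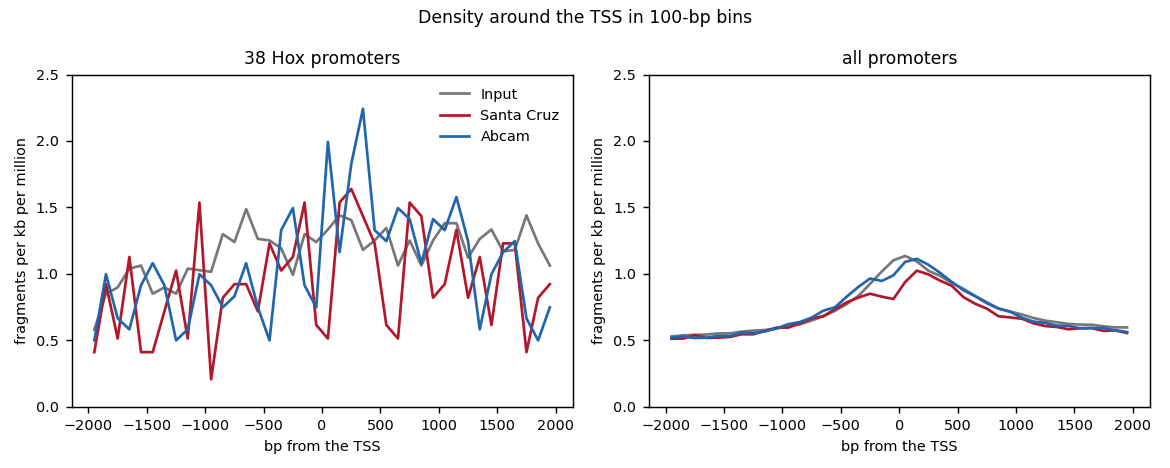
Density of fragments (y axis, per kb per 1000000) in 100-bp bins by distance from the TSS for the 38 Hox promoters and for all promoters, with input in grey, Santa Cruz in red and Abcam in blue. The Hox lines are jagged because few fragments fall in a bin, and toward the edges the ChIP lines lie mostly below the grey input line.

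Local enrichment was looked for with a Poisson test in windows of 600 bp. At a p cutoff of 1e-05 against the local input, 638 windows or runs of windows passed genome-wide with Santa Cruz and 954 with Abcam. None of either lay in a Hox cluster. The clusters hold 142.2 kb near listed starts and 342.8 kb elsewhere, a small part of the genome. Few such regions would fall there under an even spread, so their absence is not a result about the Hox genes. At 1e-04, 2 of 2164 Abcam regions lay in the clusters, both in Hoxa, and 0 of 1263 Santa Cruz regions. One of the Abcam regions held the Hoxa4 start with 11 fragments (exact Poisson p = 2.78e-05). The other lay within Hoxa7, in coding exon and UTR, at chr6:52166901-52167500, with 12 Abcam, 6 Santa Cruz and 18 input fragments (exact Poisson p = 3.81e-05). With the genome-wide rate in place of the local input, 2 of 1192 Santa Cruz and 3 of 1601 Abcam regions lay in Hoxa. Hoxa is the cluster with the densest input, and 0 lay in the other clusters. Both antibodies shared the regions at Hoxa4 and in Hoxa7, and the third, with Abcam, lay at Hoxa9.

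The E-box of Mga and Max was counted as CACGTG, which reads the same on both strands, from 250 bases before to 50 after the TSS. It was present at 7 of 38 members, 18.4% against 7.70% of all promoters. Within 2 kb of the TSS, the window of the ratios, it was present at 17 members, 44.7% against 42.3%, so that the shares were close. The sites are shown with 10 bases on either side, on the strand of the gene and from NCBIM37, because they are the letters that the known DNA-binding partners recognise. Capitals mark the E-box.
Hoxa4, 190 bases upstream: cggatcgcagCACGTGgggcgcgggg
Hoxc4, 106 bases upstream: cttgggggacCACGTGatgtcattaa
Hoxc11, 18 bases upstream: tactttggatCACGTGctcggggaga
Hoxc12, across the TSS: cggtagcgccCACGTGagtagagcgg
Hoxc13, 193 bases upstream: ggcttagcatCACGTGcagcggctgt
Hoxc13, 174 bases upstream: cggctgtggtCACGTGggaaccaggg
Hoxd1, 21 bases upstream: tggctggcgcCACGTGgctgccgccg
Hoxd4, across the TSS: tatttataagCACGTGattccaataa

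The 7 genes with an E-box had a summed ratio of 1.26 (1.02 to 1.54) with Abcam, and the 31 without it 0.842 (0.756 to 0.935). With Santa Cruz the values were 0.979 (0.757 to 1.25) and 0.770 (0.681 to 0.868). Without Hoxa4, the 6 remaining genes gave 1.17 (0.925 to 1.47) with Abcam and 0.740 (0.533 to 1.004) with Santa Cruz. Over all promoters the ratio with and without an E-box was 1.06 and 0.985 with Abcam and 1.01 and 0.935 with Santa Cruz. Among promoters with a CpG content at or above the Hox median, it was 1.18 and 1.06 with Abcam and 1.09 and 0.992 with Santa Cruz. The difference between members with and without an E-box was not tested. With the E-box counted within 2 kb, the members with and without it had 0.802 and 0.805 with Santa Cruz and 1.03 and 0.816 with Abcam. Hoxd4, which has an E-box at its start, had 6 and 9 fragments against 88. The E2F letters GCGGGAA, searched on both strands, were in 0 of the 38 short windows, against 5.67% of all promoters. Within 2 kb they were in 8 members, 21.1% against 25.3%. The T-box letters AGGTGTGA, also on both strands, were in 2 short windows (Hoxd9 and Hoxd11), 5.26% against 1.13%, and within 2 kb in 10 members, 26.3% against 16.5%. A match is a description of letters and says nothing of occupancy.

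Other genes of the Hox system were taken from a list of 17, namely the cluster neighbours Evx1 and Evx2, the upstream regulators Cdx1, Cdx2 and Cdx4, the ParaHox genes Gsx1, Gsx2 and Pdx1, and the Hox cofactors of the Meis, Pbx and Pknox families. With Santa Cruz 0 of 17 passed the adjusted threshold and 0 had an unadjusted p under 0.05, and the same counts held with Abcam (one-sided exact binomial test). Their summed ratio was 0.903 (0.760 to 1.07) with Santa Cruz, while Abcam gave 1.11 (0.967 to 1.28). With Abcam that interval overlaps the interval of the Hox members, 0.827 to 0.997, and the difference was not tested.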

How the data were processed

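Pcgf6 ChIP-seq of CCE ESCs was analysed from 5 coverage files. The deposited signal of each file is the whole-number depth of reads that the authors extended to 300 bp on mm9, one library at a time, neither scaled nor divided by the input. Bowtie 0.1.2.7 is named in the submitters' processing notes, and the duplicate filter is not given in the sources used here.

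Fragments were recovered from rises and falls of the depth 300 bp apart, kept once per position and placed at their middle. At most 0.215% of falls had no matching rise. Replicates of an antibody, the same fragments shifted by 1 or 15 bases, were joined. The TSS of most protein-coding GENCODE vM1 transcripts was used, the upstream one on a tie. Hoxa3, listed under more than 1 identifier, was read from that with most transcripts. The windows of Hoxb8 and Hoxb7 and those of Hoxa9 and Hoxa10 overlap. Counted once, the 36 merged regions gave summed ratios of 0.802 and 0.913. Promoter and window tests were exact binomial tests with Benjamini-Hochberg adjustment, and peaks used the largest of the genome-wide, 5 kb and 10 kb input rates. Fragment recovery and the promoter test were tried on simulated data.

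Members, gene lists and motifs were chosen with earlier results of these data known. Named genes were, per cluster, the highest and lowest ratio over both antibodies, every member with an unadjusted p under 0.05, and the members in the study's list. Alternatives were every deposited fragment, windows of 1, 3 and 10 kb, median scaling over 10 kb windows, the most upstream TSS, at least 20 input fragments, depth sums, a 1 kb centre, other peak settings, flank scaling, clusters extended by 10 kb and each replicate left out. The values without Hoxa4 were added after seeing the data. Software was scipy 1.17.1, numpy 2.4.6, numba 0.67.0 and matplotlib 3.10.9 with pandas 2.3.3 under Python 3.11.15.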

Additional observations from a re-analysis of the deposited data

How the results depend on the processing

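No paired analysis was possible because the replicates of an antibody are largely the same fragments and the input is 1 library. The promoter calls, summed ratios, TSS profiles, peaks, cluster ratios, the calls between antibodies and the Hoxa4 ratio were recomputed, each under those of the alternatives in the methods that apply to it. The sums by zone, paralog group, E-box and list were not. With every deposited fragment, which counts shared fragments once per replicate, 1 Hox promoter passed with Santa Cruz in place of 0. It was Hoxa4, at 1.99 with an adjusted p of 0.0125 in the exact binomial test, and 0 passed with Abcam. Over the other settings the adjusted p of Hoxa4 with Santa Cruz ran from 0.0921 to 0.95 and its ratio from 1.18 (10 kb window) to 2.13. The same setting brought the Hoxa cluster with Santa Cruz (0.848, adjusted p 0.00318) and the Hoxb cluster with Abcam (0.894, adjusted p 0.0138, exact binomial tests) past the threshold, and it called 40.02% and 42.1% of all windows and clusters. Scaled by the flanks, the Hoxb ratio with Santa Cruz was 1.03 and the Hoxd ratio with Abcam 0.752. The summed Abcam ratio over the Hox promoters had an interval holding 1 with the 1 kb window, 0.986 (0.870 to 1.11). So did it without replicate 1, 0.923 (0.836 to 1.02), and without replicate 2, 0.940 (0.852 to 1.04). Under the other alternatives that give an interval, that interval stayed below 1. Leaving out a replicate gave the Hoxa cluster with Abcam a ratio of 1.005 to 1.02 in place of 0.981. The Hoxc call with Santa Cruz then had adjusted p of 0.0473 and 0.0477 (exact binomial test). Each rests on largely the same fragments, so this does not test replication, and flank scaling lost the call (Fisher's exact test, p = 0.252). Peaks in the clusters numbered 2 with Abcam at 1e-04, and 2 with Santa Cruz and 3 with Abcam at the genome-wide rate, in place of 0. The cause of these differences was not tested. Of 56 alternative cluster ratios, 52 were below 1. Depth limits the rest. The intervals hold counting error of 1 library per antibody and no replicate error.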

Other observations

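The 17 Hox genes with more than 1 annotated start have 31 starts beside the main ones. The lowest ratio was at a start of Hoxd3 14799 bp downstream of its main one, with 2 Santa Cruz fragments against 109 of the input, a ratio of 0.159 (0.0190 to 0.589), and 10 Abcam fragments, a ratio of 0.646 (0.301 to 1.23). The start of Hoxd4 5096 bp downstream of its main one overlaps that window and held 3 Santa Cruz fragments against 107, a ratio of 0.243 (0.0494 to 0.731), and 11 Abcam fragments, a ratio of 0.723 (0.351 to 1.35). A second start of Hoxb6, 6479 bp downstream, had 17 Santa Cruz fragments against 94, a ratio of 1.57 (0.878 to 2.65), and 9 Abcam fragments, a ratio of 0.674 (0.299 to 1.33). These starts were chosen after their values were seen.

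Outside the clusters, a window of 600 bp in Evx1, the homeobox gene beside Hoxa13, held 8 Santa Cruz, 4 Abcam and 24 input fragments and passed the cutoff of 1e-05 with Santa Cruz only at the genome-wide rate. A window 1977 bp upstream of the Hoxa13 start held 9 Abcam, 1 Santa Cruz and 25 input fragments and passed with Abcam at the same setting. So did a window 4961 bp downstream of the Hoxa2 start, with 10 Abcam, 1 Santa Cruz and 19 input fragments. A window 14714 bp downstream of the Hoxd1 start held 7 Santa Cruz, 1 Abcam and 13 input fragments. It passed with Santa Cruz against the local input at 1e-04.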
